A study of Mus musculus with 2 samples.

Results

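Glycolysis and the citric acid cycle carry glucose carbon through the cytosol and the mitochondrion, and 39 genes for their enzymes were followed here in mouse pancreas. The genes were chosen by symbol, from what their enzymes do, but with earlier results of these data known. The set held 17 glycolytic enzymes, 3 enzymes of gluconeogenesis and pyruvate carboxylation, 4 subunits of the pyruvate dehydrogenase complex, 12 mitochondrial enzymes of the cycle and 3 cytosolic enzymes that share reactions with it. Of these 39, 36 had a probe set that the platform annotation gives to that gene alone, out of 18193 genes with such a probe set on the array. Eno1 and Gpi1 were not analysed here, and Gapdh was read only through control probe sets, so these 3 stand outside every count of ratios below. Gapdh was counted only in the alternative that included control probe sets, and the promoter search, which needs no probe set, took in all 3.

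The RNA was total RNA of whole pancreas from male C57BL/6J mice 10 weeks old. Dams of the control group ate a control diet, and dams of the threonine-deficient (TD) group ate a diet short of threonine, an essential amino acid, between embryonic days 12.5 and 14.5. All offspring were weaned at 3 weeks, ate control diet afterwards and had no treatment of their own. Each group was 1 pool of RNA on 1 Affymetrix array, and how many animals made up a pool is not stated in the sources used here.

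Because there was 1 pool per group, no value has a replicate, no test between the diets exists, and each comparison is between these 2 pools. The values were MAS5 signals, a linear brightness per probe set. Each array had been scaled as a whole, so ratios show change against the other genes and not in total RNA. A signal under 264.9, the higher of the arrays' 60th percentiles, was raised to that floor before a ratio was formed. The log2 ratio is always that of the TD over the control pool. A gene that exceeded the floor on 1 array only has a ratio that is a lower bound on its size. Each ratio was set beside a local spread, the scaled median absolute deviation of the ratios of 200 genes of like signal. Genes were counted at differences of at least 1.5-fold and at least 2-fold. The markers of acinar cells, which make up most of the pancreas, were bright on both arrays, with 6 of the 6 measured markers above the floor. The brightest were the digestive enzyme genes Prss2, with 242235 in the control and 245908 in the TD pool, and Cel, with 237669 and 262788.

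Glycolysis splits glucose into pyruvate in the cytosol, with hexokinase, phosphofructokinase and pyruvate kinase as its controlled steps, and lactate dehydrogenase exchanges pyruvate with lactate. The pyruvate dehydrogenase complex commits pyruvate to acetyl-CoA, which the citric acid cycle oxidises to feed the respiratory chain and which also supplies carbon for amino acids. Acinar cells need a steady supply of ATP for making and secreting digestive enzymes, and in islet beta cells glycolytic and mitochondrial flux couples glucose to insulin release.

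Transcripts of both pathways differed little between the pools, and those of the citric acid cycle lay mostly on the lower side in the TD pool. The median log2 ratio was 0.02 over the 13 glycolytic genes above the floor and −0.13 over the 12 mitochondrial cycle genes, against 0.00 over all 10758 genes above the floor. Glycolysis had 7 higher and 6 lower genes, whereas the cycle had 3 higher and 9 lower. Of all genes above the floor 49.9% were lower. Only Dlst, a core subunit of the 2-oxoglutarate dehydrogenase complex, and Pck2, the mitochondrial phosphoenolpyruvate carboxykinase, were at least 1.5-fold apart, and both were lower in the TD pool.

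Of the 34 measured genes above the floor on at least 1 array, 2 were thus at least 1.5-fold lower, where 5.36% of all genes above the floor were. None was at least 1.5-fold higher, where 7.2% of all genes were, although Hk1 and Eno3 have only lower bounds. None was past 2-fold in either direction, where 2-fold higher genes made up 1.28% of all genes and 2-fold lower genes 0.874%. Most of the 34 genes are bright, and bright genes were lower slightly more often on these arrays. Among the 3801 genes with signals over 1000 on both arrays, 58.6% were lower in the TD pool and the median log2 ratio was −0.05. In that range the 11 cycle genes had a median of −0.11 with 8 lower, and the 7 glycolytic genes −0.05 with 4 lower. The cycle median minus the glycolysis median was −0.15 on the log2 scale. It was −0.06 among genes over 1000, a setting added after the data were seen, −0.07 with a higher floor, −0.08 after a trend with signal was removed, and −0.29 without probe sets that may be shared between transcripts.

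**Figure D1:**
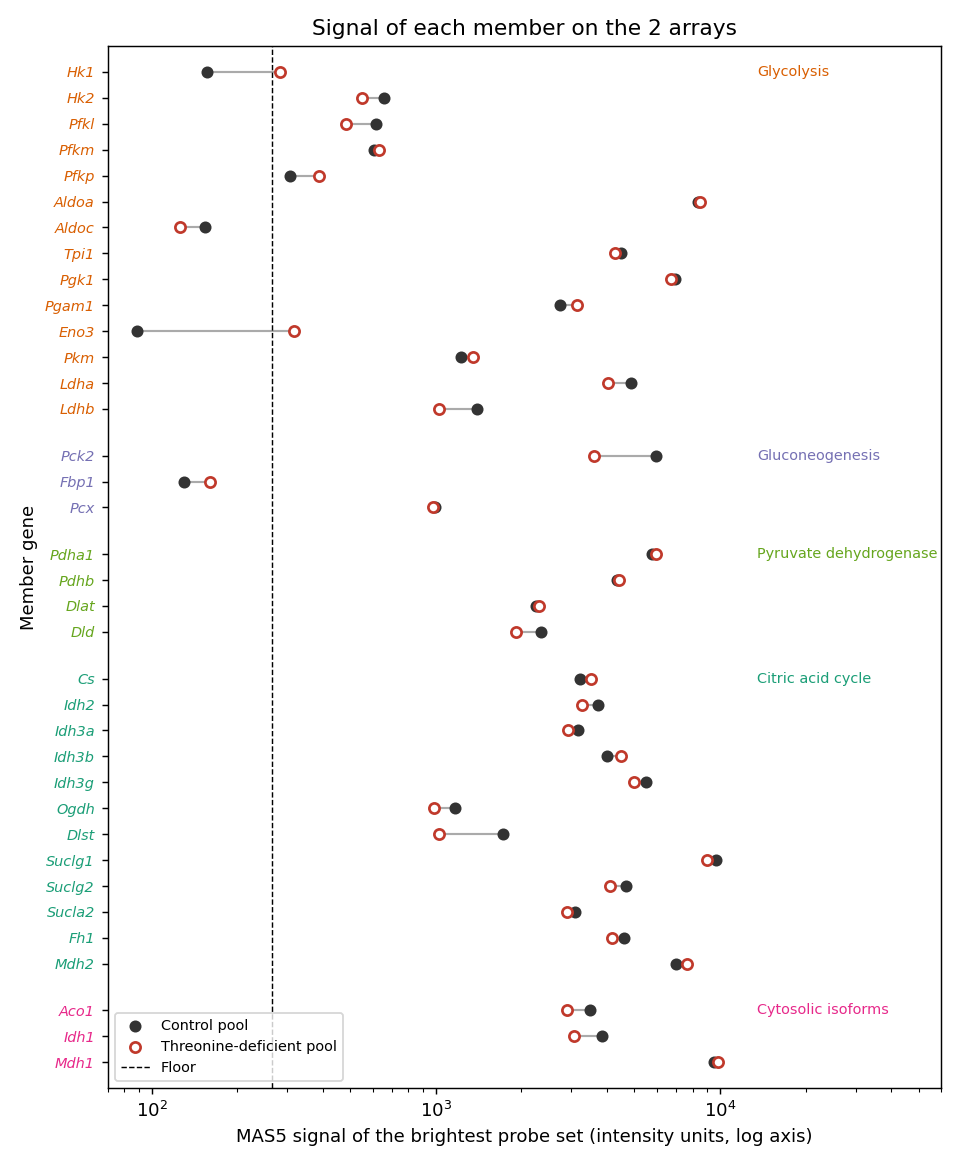
Signal of the brightest probe set of each of the 36 measured genes (log axis, intensity units) in the control pool (filled) and the TD pool (open), joined by a line and grouped by pathway, with the floor dashed. The 12 cycle genes all lie above the floor on both arrays, while Aldoc and Fbp1 lie below it on both and Hk1 and Eno3 cross it.

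The hexokinase step, which traps glucose in the cell, was read near the lower end of the measurable range. Hk2 went from 659 in the control to 550 in the TD pool, a log2 ratio of −0.26 within its local spread of 0.41. Hk1 had 157 and 283, so it crossed the floor only in the TD pool and was at least 1.07-fold higher. A further probe set that carries Hk1 among several symbols was not used. Hk3, a hexokinase of white blood cells from the list of further isoforms, had 504 and 1183 and was 2.35-fold higher, with a log2 ratio of 1.23 and a local spread of 0.32. Macrophage markers went both ways beside it, with 3 of 5 higher and a summed signal of 7140 (control) and 7335 (TD). The part of such cells in the Hk3 value was not tested.

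All 3 phosphofructokinase genes, which encode the liver, muscle and platelet forms of the committed step, were above the floor on both arrays. Pfkm had 607 and 629, the closest agreement of the 3, with a log2 ratio of 0.05. Pfkl had 615 and 481 (−0.35) and Pfkp 308 and 389 (0.34), each within its local spread of 0.43 and 0.42. The repeat readings of these genes disagreed. The second probe set of Pfkl gave 0.08 and the third went from 207 to 1052, at least 3.97-fold higher, while a second probe set of Pfkp gave −0.24 from the floor. The sign for Pfkl and Pfkp therefore rested on which probe set was read.

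The lower part of glycolysis was bright and nearly equal in the pools. Aldoa, the aldolase of most tissues, had 8393 and 8502 (log2 ratio 0.02), with its other 4 probe sets between −0.28 and 0.09. Aldoc, the brain form, had 154 and 126 and was below the floor on both arrays. Tpi1, triose phosphate isomerase, had 4467 and 4273 (−0.06), with 0.11 and 0.18 in its other probe sets. Pgk1, the first ATP-yielding kinase of the pathway, had 6970 and 6738 (−0.05), with −0.22 and 0.28 in its others. These 3 bright genes had ratios within local spreads of 0.16 to 0.17, and their probe sets fell on both sides of 0.

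Pgam1, phosphoglycerate mutase, had 2728 and 3134, a log2 ratio of 0.20 that lay within its local spread of 0.22. Pkm, which encodes the muscle-type pyruvate kinases, had 1223 and 1350 (0.14, local spread 0.30). Pklr, the liver and red cell pyruvate kinase, had 322 and 238 and so passed the floor only in the control pool. Eno3, the muscle enolase, had 89 and 317, a log2 ratio of at least 0.26. It passed the floor in 1 pool only, as did Hk1, and both were over 1.5-fold higher when no floor was set. Pgam2, the muscle mutase, had 307 and 463 (log2 ratio 0.59, 1.51-fold higher). Of 8 skeletal muscle markers 7 lay below the floor on both arrays, and the other, Ckm, had 307 and 508. The summed signal of these markers was 603 (control) and 1297 (TD), and their part in the Eno3 and Pgam2 values was not tested.

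Gapdh, glyceraldehyde phosphate dehydrogenase, often serves as a reference transcript, and 3 probe sets that carry it among several symbols were not used. Its 3 control probe sets, which read both ends and the middle of the transcript, gave log2 ratios of −0.34 at the 3′ end, −0.20 in the middle and −0.11 at the 5′ end. At the 3′ end the signals were 7571 and 5980, and at the 5′ end 7779 and 7219. The ratio of the 3′ to the 5′ signal was 0.973 (control) and 0.828 (TD). The same ratio for Pcx was 2.56 and 3.42 and that for Actb 1.46 and 1.53, so the end-to-end ratio did not move one way in all 3 transcripts. All 3 Gapdh readings were lower in the TD pool, and their spread of 0.11 to 0.34 is of the size of many differences described here.

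Both lactate dehydrogenase genes were lower in the TD pool by more than their local spread. Ldha, the form that dominates in glycolytic tissue, had 4878 and 4048, a log2 ratio of −0.27 past its local spread of 0.17, and was read by 1 probe set. Ldhb, the form that dominates in oxidative tissue, had 1401 and 1029, a log2 ratio of −0.45 against 0.27. Its other probe sets above the floor gave −0.62 and −0.19, both at the floor in the TD pool. Ldhb was the only glycolytic gene of the 6 with repeat readings above the floor whose readings all had 1 sign. Its other readings passed the floor in the control pool only, so their ratios could only be lower. Ldhc, the testis form, was below the floor on both arrays.

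Of the 3 listed genes of gluconeogenesis and pyruvate carboxylation, Pck2 was lower in the TD pool by more than its local spread. Its enzyme makes phosphoenolpyruvate from oxaloacetate inside the mitochondrion and is a known target of ATF4, which switches on genes when amino acids run short. Its signal went from 5955 in the control to 3609 in the TD pool, 1.65-fold lower, with a log2 ratio of −0.72 past a local spread of 0.17. A second probe set was dim and gave 336 and 330 (−0.03). The brighter probe set has a name ending in _a_at, which marks probes shared between transcripts of the gene, and the ratio fell short of 1.5-fold with the median over both probe sets (−0.37) and without such probe sets (−0.03).

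Pcx was nearly equal in the pools and Fbp1 was under the floor, while Pck1, from the list of further isoforms, was lower. Pcx, the pyruvate carboxylase that refills the cycle with oxaloacetate, had 995 and 980 (−0.02, local spread 0.37). Fbp1, the liver fructose bisphosphatase, had 131 and 161 and lay below the floor on both arrays. Fbp2, its muscle form, had 509 and 381 (−0.42, within its local spread of 0.48). Pck1, the cytosolic counterpart of Pck2 and an abundant enzyme of fat cells, had 936 and 198, at least 3.53-fold lower, and its other reading above the floor was −0.46. Fat cell markers were lower with it in 6 of 6 genes above the floor, from −1.42 for Car3 to −0.30 for Lpl, and their summed signal was 42631 (control) and 23158 (TD). The brightest in the control pool were Car3, with 14501 and 5434, and Fabp4, with 12966 and 6592. In the TD pool the brightest was Lpl, with 11407 and 9278. In whole tissue, fewer cells of a type and less RNA per cell cannot be told apart, and the part of fat cells in the values of Pck1 or Pck2 was not tested.

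The pyruvate dehydrogenase complex joins both pathways, and 3 of its 4 listed subunits were nearly equal in the pools by their brightest probe sets. Pdha1, the catalytic alpha subunit, had 5759 and 5930 (log2 ratio 0.04), and Pdhb, the beta subunit, had 4330 and 4404 (0.02, with 0.34 in its other probe set). Dlat, the acetyltransferase core, had 2242 and 2316 (0.05), with 0.34 and −0.19 in its other probe sets. Ratios from the brightest probe sets lay within local spreads of 0.15 to 0.24. Dld, the dihydrolipoamide dehydrogenase that this complex shares with 2-oxoglutarate dehydrogenase, had 2344 and 1913, a log2 ratio of −0.29 against 0.24. Pdhx, a further subunit of the complex, named after its value was seen, had 549 and 448 (−0.29, within its local spread of 0.53). The testis form Pdha2 was below the floor on both arrays.

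In the citric acid cycle, the 2-oxoglutarate dehydrogenase complex, which turns 2-oxoglutarate into succinyl-CoA, had 3 of 3 subunits on the lower side. Dlst, its succinyltransferase core, had 1730 in the control and 1028 in the TD pool, 1.68-fold lower, with a log2 ratio of −0.75 past a local spread of 0.25. A second Dlst probe set went from 397 to 216, at the floor in the TD pool, and had a log2 ratio of −0.58 as a bound, while the other 2 lay below the floor on both arrays. Ogdh, the decarboxylase subunit, had 1164 and 987, a ratio of −0.24 within its local spread of 0.30, and −0.39 in a second probe set read from the floor. Dlst kept a ratio between −0.75 and −0.63 under all 10 other ways of processing that were run, each of them over 1.5-fold lower. Several of these, such as the other floors and no sharing suffixes, could not change the reading of its brightest probe set.

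The promoter windows of Dlst and Pck2 are shown because these were the pair of genes past 1.5-fold. They are the 250 bases before the annotated start, from RefSeq on build GRCm38.p6, on the plus strand, at chr12:85110583-85110832 for Dlst and chr14:55540016-55540265 for Pck2. Capitals mark matches to the motifs named in the next paragraph.
Dlst: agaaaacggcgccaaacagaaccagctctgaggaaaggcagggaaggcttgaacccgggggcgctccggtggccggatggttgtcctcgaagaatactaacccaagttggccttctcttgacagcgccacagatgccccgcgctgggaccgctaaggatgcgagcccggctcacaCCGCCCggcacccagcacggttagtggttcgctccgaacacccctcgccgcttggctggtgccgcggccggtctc
Pck2: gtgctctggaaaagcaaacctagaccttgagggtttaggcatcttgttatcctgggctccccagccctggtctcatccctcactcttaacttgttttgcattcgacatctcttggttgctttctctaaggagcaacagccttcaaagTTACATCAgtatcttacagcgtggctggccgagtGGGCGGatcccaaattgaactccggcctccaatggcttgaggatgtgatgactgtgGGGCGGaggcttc

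The window of Pck2 held a match to the ATF4 and C/EBP composite element (TGATGNAA) on the minus strand, starting 103 bases before the start, and GC boxes (GGGCGG) at 69 and 13 bases before it. The window of Dlst held 1 GC box, on the minus strand, 75 bases before the start. Both strands were searched for 7 motifs in windows of 300 bases, which also take in 50 bases after the start, for 38 of the 39 genes (56 windows) and for all 32851 windows of the table. The ATF4 and C/EBP element was found in 1 member window, that of Pck2, and in 3.97% of all windows. The core of the HIF element (ACGTG), which overlaps the E-box (CACGTG), was in 42.9% of the 28 glycolytic windows, 40% of the 20 windows of the mitochondrial genes and 19.6% of all. The E-box itself was in 7.14% of glycolytic and 7.15% of all windows.

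GC boxes were in 60.7% of the member windows and 35.7% of all, and the NRF1 core (GCGCANGCG) in 14.3% and 6.25%. The estrogen-related receptor element (TNAAGGTCA) was in 1 member window, that of Tpi1, and in 1.28% of all. The TATA box (TATAAA) was in none of the 56 member windows and in 13.6% of all. The member windows had a median GC content of 60%, against 52.7% for all windows, which bears on how often any GC-rich motif is met. A match is a string of letters and shows no binding, and several windows can belong to 1 gene.

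The first steps of the cycle were split. Cs, citrate synthase, had 3215 and 3516 (0.13, local spread 0.19), and its other probe sets gave 0.35 and −0.14. The NAD-dependent isocitrate dehydrogenase has an alpha, a beta and a gamma subunit, encoded by Idh3a, Idh3b and Idh3g. Idh3a had 3153 and 2915 (−0.11, with −0.38 and −0.32 in its other probe sets) and Idh3g had 5496 and 4969 (−0.15, and −0.15 in its other). Idh3b had 4013 and 4483 (0.16, but −0.10 in its other). All 3 ratios lay within their local spreads, of 0.22, 0.16 and 0.18. Idh2, the NADP-dependent mitochondrial enzyme, had 3732 and 3262, a ratio of −0.19 just past its local spread of 0.18.

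Succinyl-CoA ligase, which makes nucleoside triphosphate in the cycle, was on the lower side in 3 of 3 subunits, by small amounts. Suclg1, the shared alpha subunit, had 9667 and 9022 (−0.10), and Sucla2, the beta subunit of the ATP-forming enzyme, had 3079 and 2887 (−0.09). Both lay within local spreads of 0.16 and 0.22. Suclg2, the beta subunit of the GTP-forming enzyme, had 4680 and 4093, a ratio of −0.19 against 0.17, and its second probe set went from 1333 to 874 (−0.61).

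The last steps lay on both sides of 0. Fh1, fumarase, had 4587 and 4156 (−0.14, local spread 0.17), and was read by 1 probe set. Mdh2, mitochondrial malate dehydrogenase, had 6986 and 7638 (0.13, local spread 0.16), although its second probe set gave −0.18. Of the 4 succinate dehydrogenase subunits, which belong to both the cycle and the respiratory chain, Sdhb had 12076 and 10571 (−0.19) and Sdha 5127 and 5546 (0.11, but −0.34 in another probe set). Sdhd had 3033 and 3495 (0.20, and 0.54 in another), and Sdhc, named after its value was seen so that the complex is whole, had 1510 and 1262 (−0.26, but 0.39 in another).

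Of the 3 cytosolic enzymes, Idh1, the cytosolic source of NADPH from isocitrate, had 3838 and 3055, a log2 ratio of −0.33 past a local spread of 0.18, but 0.01 in its second probe set. Aco1, the cytosolic aconitase that doubles as an iron-regulatory protein, had 3496 and 2905 (−0.27 against 0.18) and −0.02 in its second. Mdh1, cytosolic malate dehydrogenase of the malate-aspartate shuttle, had 9560 and 9848 (0.04), with −0.35 and −0.08 in its others. In each of these genes at least 1 other probe set differed from the brightest by more than the local spread.

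**Figure D2:**
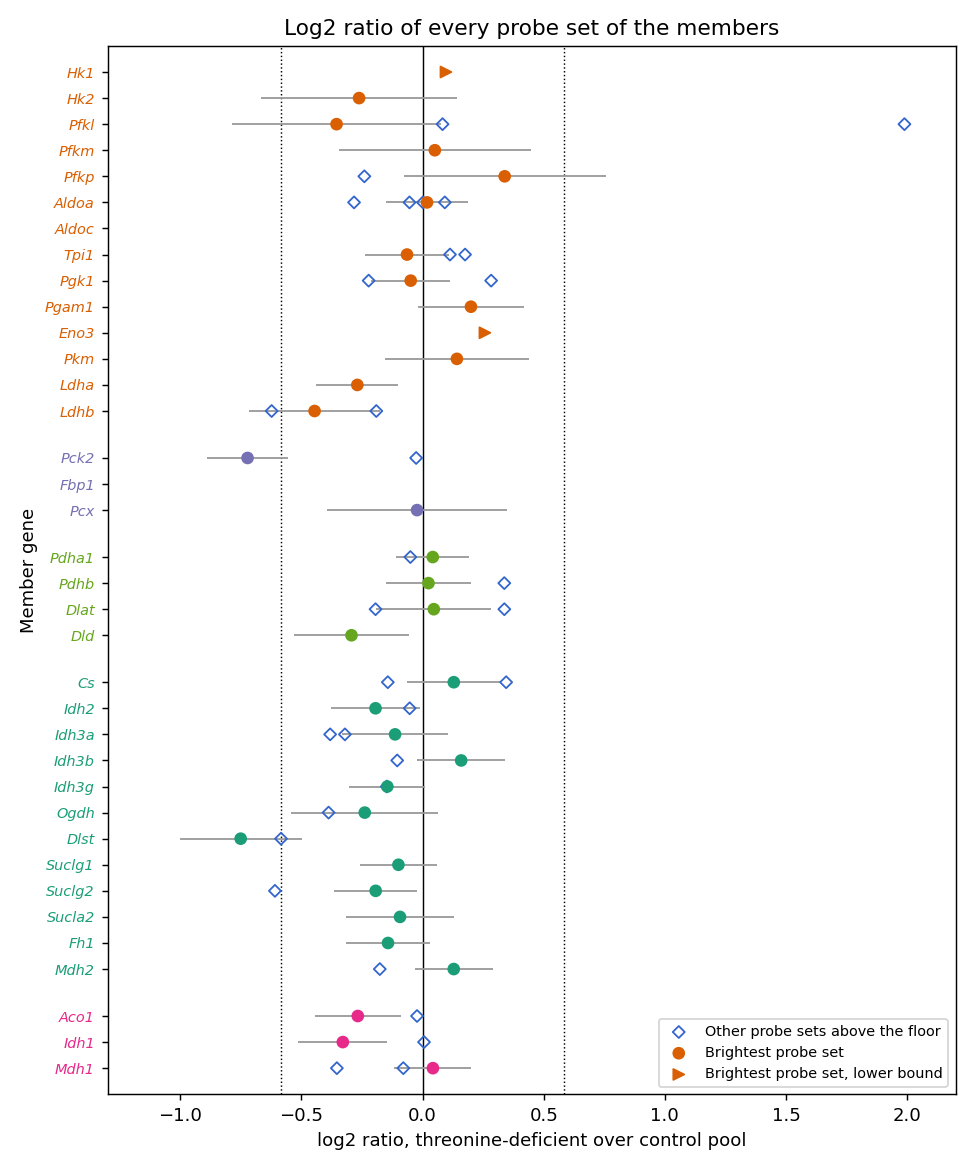
Log2 ratio of the TD over the control pool for each gene, with the brightest probe set as a filled point (a triangle where the ratio is a lower bound), bars of 1 local spread on each side, and the other probe sets above the floor as open diamonds. Dotted lines mark 1.5-fold. The brightest probe sets of Dlst and Pck2 lie past the lower line, as do diamonds of Ldhb (−0.62) and Suclg2 (−0.61). The diamond at 1.99 is the third probe set of Pfkl.

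Repeat readings are further probe sets of the same gene on the same 2 arrays. They show how far probe sets differ and are not replicates of a diet group, because they share each pool's RNA and hybridisation. Over the 22 genes that had further readings above the floor, the standard deviation per probe set was 0.22 on the log2 scale, against 0.37 over 4251 genes of the array. Those 4251 genes are of any brightness, whereas most pathway genes are bright. Local spreads were smaller at bright signal, so the values 0.22 and 0.37 are not like for like. Of the 22 genes, 13 had the same sign in their 2 brightest probe sets, or 59.1%, against 52.1% of all 4251. In the citric acid cycle, 6 of 9 such genes had every reading above the floor lower (Dlst, Idh2, Idh3a, Idh3g, Ogdh and Suclg2) and 3 lay on both sides. The further readings counted for Dlst, Idh2 and Ogdh passed the floor in the control pool only, so their ratios could only be lower. That of Idh2 had 275 and 240 (−0.05). Those counted for Idh3a, Idh3g and Suclg2 were above the floor on both arrays. Over all genes, of any brightness, 20.8% had every reading lower and 20.3% every reading higher. In glycolysis 1 of 6 had every reading lower and 5 lay on both sides. Of the 32 genes above the floor on both arrays, 9 lay beyond their local spread, or 28.1%, against 33.7% of all such genes in either direction. All of the 9 were lower, and the share of all genes past their spread on the lower side alone was not computed. Ratios were also read from 0, and bright genes were lower slightly more often. After the trend with signal was removed, Idh2 and Suclg2 (both −0.13) lay within those spreads. Pgam1 (0.26), Idh3b (0.22) and Mdh2 (0.20) then lay past them on the higher side.

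**Figure D3:**
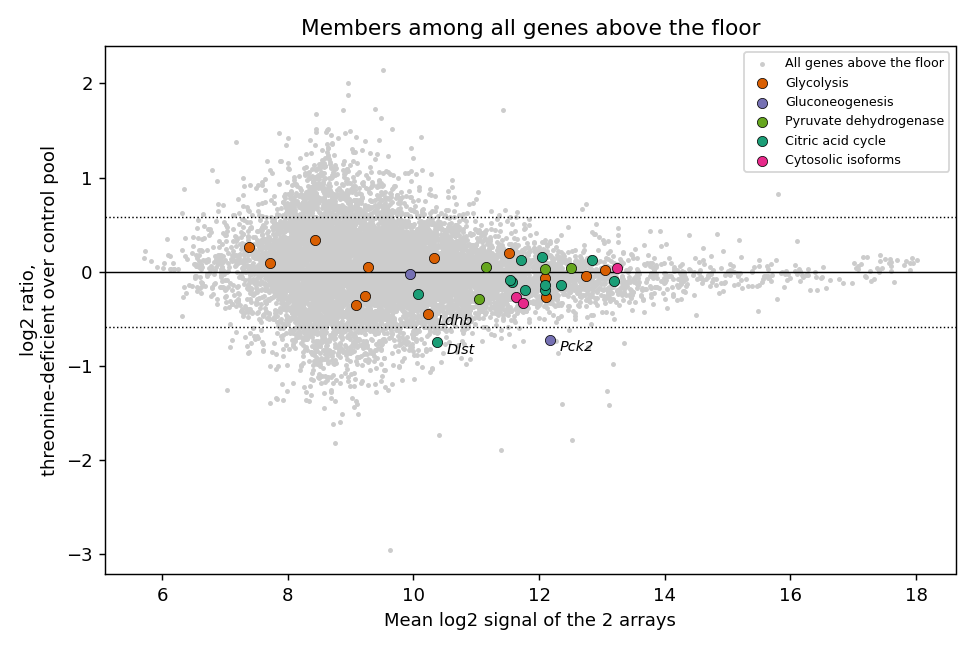
Log2 ratio of the TD over the control pool against mean log2 signal of both arrays for the 10758 genes above the floor (grey) and the 34 pathway genes among them (coloured by group), with 1.5-fold dotted. Most pathway genes lie within the grey band, and Dlst and Pck2 lie below the lower dotted line.

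Of 96 further genes in 4 lists on the same pathways, 75 were above the floor on at least 1 array, of which 5 were 1.5-fold or more higher and 5 were lower by as much, where 7.2% and 5.36% of all genes above the floor were. The list of other isoforms and subunits had a median log2 ratio of −0.23 over 18 genes, with Hk3 and Pgam2 at least 1.5-fold higher and Pck1 and Adpgk at least 1.5-fold lower. Adpgk, which phosphorylates glucose with ADP, had 457 and 294 (−0.64, past its local spread of 0.47, and −0.34 in another probe set). G6pc2, the glucose phosphatase subunit of beta cells, had 1804 and 1333 (−0.44 against 0.27), whereas G6pc, the liver form, was below the floor on both arrays. Islet markers were lower in 8 of 8 genes, G6pc2 and Slc2a2 among them, from −1.09 to −0.02, with a summed signal of 176272 (control) and 144482 (TD). The brightest were Ins2, with 93733 and 81745, and Iapp, with 52958 and 39770. Their part in the pathway values was not tested.

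Regulators had a median of 0.04 over 21 genes, 11 higher and 10 lower. Pfkfb2, which sets the level of an activator of phosphofructokinase, had 272 and 521 (0.93, 1.91-fold higher), while its further readings were 0.09 and 0.22. Esrra, an orphan nuclear receptor that drives genes of mitochondrial metabolism, had 937 and 546 (−0.78, 1.72-fold lower), but 0.21 in its other probe set. Pdk1, a kinase that switches pyruvate dehydrogenase off, had 4067 and 3189 (−0.35 against a local spread of 0.20), with −0.44 and 0.00 in its others. Hif1a, the hypoxia factor that induces glycolysis, had 4405 and 3489 (−0.34 against 0.20), with 0.08 and 0.32 in its others. Myc had 1870 and 2179 (0.22), and the glucose-responsive gene Txnip 17010 and 16519 (−0.04).

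Carriers and shuttle enzymes had a median of −0.13 over 27 genes, of which 21, or 77.8%, were lower. Of all genes above the floor 49.9% were lower, and of those over 1000 on both arrays 58.6%. Mpc1, a subunit of the mitochondrial pyruvate carrier, had 7234 and 5633, a log2 ratio of −0.36 past a local spread of 0.16. Me1, the cytosolic malic enzyme that makes NADPH for fat synthesis, had 908 and 440 (2.06-fold lower), and −0.39 elsewhere on the array. Slc2a2, the glucose transporter of beta cells and liver, had 563 and 232 and was at least 2.12-fold lower. Slc16a7, a monocarboxylate transporter, had 291 and 559 (1.92-fold higher), and Slc25a13, an aspartate-glutamate carrier, 373 and 590 (1.58-fold higher). Vdac2 of the outer mitochondrial membrane, Glul and Glud1, which make glutamine and interconvert glutamate with 2-oxoglutarate, had −0.05, −0.11 and −0.11, with 0.33 in another probe set of Glul and −0.42 in another of Glud1.

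The pentose phosphate branch had a median of 0.10 over 9 genes, and none reached 1.5-fold above the floor. H6pd, named after its value was seen, had 340 and 62 and so only a bound, a log2 ratio of −0.36 or further from 0. Its non-oxidative enzymes Tkt and Taldo1 had 7019 and 5953 (−0.24) and 5365 and 4231 (−0.34), each past a local spread of 0.16, although 1 of the other probe sets of Tkt gave 0.28. Pgls of its oxidative arm had 3192 and 3812 (0.26 against 0.18) and Prps2, which makes the activated ribose for nucleotides, 3623 and 3878 (0.10, but −0.39 and −0.52 in its other probe sets). The oxidative arm's first enzyme, G6pdx, was not analysed here.

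**Figure D4:**
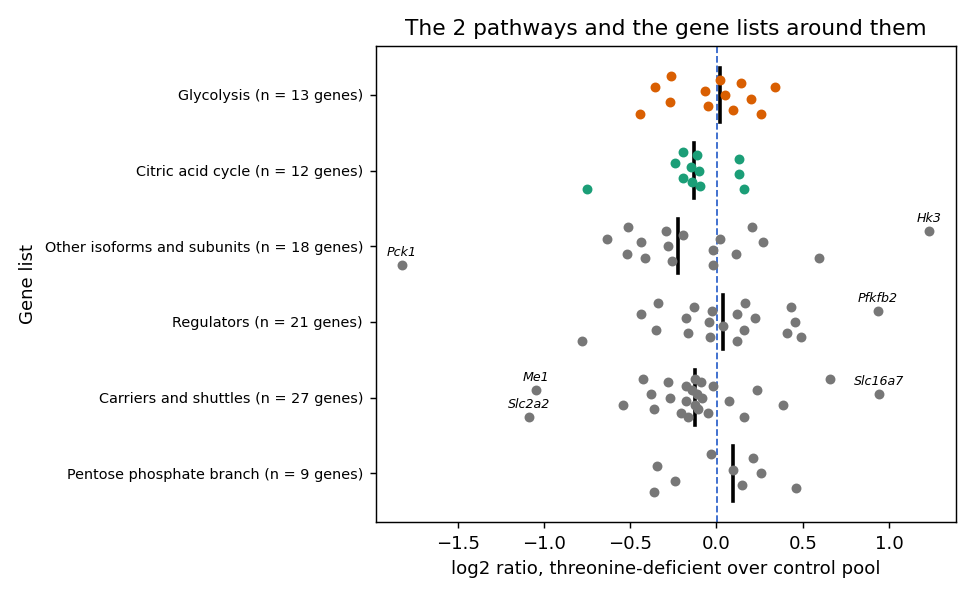
Log2 ratio of the TD over the control pool for each gene above the floor in glycolysis, the citric acid cycle and 4 further lists, with a black bar at each list's median and a dashed line at the median of all genes. The cycle median of −0.13 and the carrier median of −0.13 lie left of the dashed line and the glycolysis median of 0.02 beside it; genes past 0.9 are named.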

How the data were processed

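The deposited values were linear signal intensities from MAS5, per the submitters' processing notes, for 45101 probe sets on 2 arrays of pooled RNA. Both arrays had a mean of 500.0 after 2% was trimmed at each end. The version and genome build are not given in the sources used here. The 64 control probe sets were kept out of the comparison. Names came from the platform annotation, updated by gene identifier to RefSeq (GRCm38.p6), and probe sets with several symbols named no gene. Each gene was read by its brightest probe set by mean log2 signal, and 10758 of 18193 genes exceeded the floor. Computations used Python 3.11.15, numpy 2.4.6 and pandas 2.3.3, and the procedure was tested on simulated data. The number of arrays limits the precision. The members, lists and thresholds were chosen with earlier results of these data known. All members were named. Of each further list, genes at least 1.5-fold apart and the 4 brightest others were named, with isoforms named for their presence. Counts and summed signals were given for fat cell, islet, macrophage and skeletal muscle markers, and the brightest genes for acinar, fat cell and islet markers. Acinar markers had 5 higher and 1 lower, and their summed signal in the TD pool was 1.07 times that in the control pool. Duct, endothelial, erythroid, liver and nerve markers had 5, 4, 2, 2 and 0 genes above the floor, with medians of 0.30, 0.39, 0.52, −0.03 and no value, in that order. Duct markers had 3 higher and 2 lower, from −0.33 for Krt18 to 2.14 for Car2. Endothelial markers were higher in 4 of 4 genes and erythroid markers in 2 of 2, and liver markers had 1 higher and 1 lower. The alternatives were median centring, a loess trend, no floor, a lower (50th percentile) or higher (75th percentile) floor, a pseudocount, the median over probe sets, no sharing suffixes and control probe sets included, with genes over 1000 on both arrays added after the data were seen.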

Additional observations from a re-analysis of the deposited data

Results flagged for a closer look

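A pair of readings outside the comparison had a signal in the threonine-deficient pool well above that of the control pool. The third probe set of Pfkl by brightness had 1052 in the threonine-deficient and 207 in the control pool, where the 2 brighter ones gave log2 ratios of −0.35 and 0.08. A control probe set for a middle part of Pcx had 651 in the threonine-deficient and 171 in the control pool, at least 2.46-fold higher. The other Pcx control probe sets gave −0.08, −0.34 and −0.49, and the probe set used for the gene gave −0.02. The cause of either value was not tested.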

How the results depend on the processing

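Across 10 alternatives the citric acid cycle median stayed between −0.14 and −0.07, and 17 of 316 values of single genes, in 11 genes, moved by more than their local spread (0.1 for genes at the floor). Neither Dlst nor Pck2 changed sign. The number of genes at least 1.5-fold higher was 2 with no floor and 2 with the floor at the 50th percentile (Eno3 and Hk1), and 1 with a pseudocount (Eno3). Without sharing suffixes it was 1 (Pfkl, through the third probe set), and the genes at least 1.5-fold lower were 1 (Dlst), as with the median over probe sets, where it was 1. The number at least 2-fold higher was 1 with no floor and 1 without sharing suffixes. Without sharing suffixes, which leaves 7 glycolytic genes, the glycolysis median was 0.14 and the cycle median minus it was −0.29. Apart from Eno3 and Hk1, whose control signals lie under the floor, the cause was not tested. No paired analysis was possible because each group is 1 pool. Low signal limits Hk1, Eno3, Aldoc and Fbp1, which have only bounds or no ratio.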
